A study of Mus musculus with 6 samples.

Results

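The genes described here are 7 lipoxygenases of skin and leukocytes, Alox12b, Aloxe3, Alox12, Alox12e, Alox15, Alox8 and Alox5, and Alox5ap, which encodes the protein that presents arachidonate to the product of Alox5. They were chosen by function, with earlier results of these data known. Each was read from its brightest probe set among those annotated with exactly 1 gene symbol. All 8 were measured, among 18193 genes and 45101 probe sets in all. Alox12 had 2 probe sets and the other genes 1 each. The study profiled skin tumours of 3 EKO mice, which lack E-FABP, the fatty acid binding protein of the epidermis, and of 3 WT mice, which carry the wild-type genotype. Both groups had received DMBA, a carcinogen, and TPA, a phorbol ester that promotes tumour growth, for 5 months, so no untreated skin was compared. Tumours were digested to single cells, and RNA was measured on Affymetrix 3' arrays, 1 per mouse. The sources used here do not give age, strain, the tissue in which E-FABP was lost or the number of tumours per mouse. Below, an EKO or WT tumour therefore means the tumour cells of 1 mouse, measured on 1 array.

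Lipoxygenases are iron-containing enzymes that add oxygen to polyunsaturated fatty acids such as arachidonate and linoleate. In the outer epidermis the products of Alox12b and Aloxe3 act in sequence on linoleate bound in ceramides, a step needed to attach lipids to the surface of the dead outer cells and so to seal the skin. Alox8 and Alox12e make other hydroxy fatty acids in mouse skin, and Alox8 was first described in mouse skin treated with phorbol ester. Alox5 with Alox5ap starts leukotriene synthesis in leukocytes, and Alox15 is the 12/15-lipoxygenase of macrophages and eosinophils. Alox12 encodes the 12-lipoxygenase called platelet-type. E-FABP carries fatty acids of the kind these enzymes use.

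Array medians ran from 5.41 to 5.43 on the log2 scale and lower quartiles from 3.90 to 3.97. Fabp5, which encodes E-FABP, separated the groups as labelled: its EKO mean was 8.16 ± 0.166 and its WT mean 14.85 ± 0.073 (SD, n = 3 each). The labels call the cells keratinocytes. Krt14, a basal keratin, read 14.70 to 14.74 in EKO and 14.66 to 14.80 in WT tumours, close to the top of every array. The pan-leukocyte gene Ptprc read 8.49 to 8.98 in EKO and 8.72 to 8.80 in WT tumours, so leukocyte transcripts were measured too. For genes of one cell type, fewer cells and less RNA per cell cannot be told apart in these tumours. All values below are log2 values as deposited, differences are EKO minus WT, and a value of one gene was never set against the value of another.

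The promoters of 5 of the 8 genes stood in the RefSeq table (GRCm38.p6), and 3 are shown because the results turn on these genes: Alox12e and Alox8 had the lower EKO values that did not overlap WT, and Alox12b, the neighbour of Alox8, had the highest difference in the other direction. Each sequence is the 250 bases before the annotated start, read 5′ to 3′ on the gene's strand. They lie at chr11:70322531-70322780 on the minus strand for Alox12e, chr11:69197844-69198093 on the minus strand for Alox8 and chr11:69156822-69157071 on the plus strand for Alox12b. Capitals mark the GC box, GGGCGG on either strand.
Alox12e: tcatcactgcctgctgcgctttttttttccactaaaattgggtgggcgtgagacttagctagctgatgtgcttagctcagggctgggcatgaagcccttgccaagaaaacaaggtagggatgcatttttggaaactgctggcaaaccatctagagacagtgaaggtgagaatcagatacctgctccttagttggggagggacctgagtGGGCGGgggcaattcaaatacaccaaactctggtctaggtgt
Alox8: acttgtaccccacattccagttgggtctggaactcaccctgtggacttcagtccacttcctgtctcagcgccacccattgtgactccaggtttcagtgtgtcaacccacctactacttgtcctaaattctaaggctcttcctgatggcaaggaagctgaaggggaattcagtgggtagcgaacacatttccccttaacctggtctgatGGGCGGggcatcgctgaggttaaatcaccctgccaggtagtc
Alox12b: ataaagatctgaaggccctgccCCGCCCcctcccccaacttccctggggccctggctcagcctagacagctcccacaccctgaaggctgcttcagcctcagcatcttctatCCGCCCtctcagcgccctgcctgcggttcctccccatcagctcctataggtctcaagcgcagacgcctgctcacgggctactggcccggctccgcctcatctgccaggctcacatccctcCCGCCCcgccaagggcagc
The phorbol ester response element of AP-1, TGANTCA on either strand, was searched because TPA drove these tumours. It occurred in 0 of the 5 windows, each with 50 further bases after the start, and in 7.81% of all 32851 windows of the table. The GC box was searched after the sequences had been seen. It occurred in 5 of 5 windows, with 3 matches in that of Alox12b and 1 each in those of Alox12e and Alox8, and in 35.7% of all windows. The RefSeq table also places 6 of the genes on chromosome 11. Aloxe3, Alox12b and Alox8 are consecutive protein-coding genes there, as are Alox12, Alox12e and Alox15. Neither run of neighbours moved one way: the differences of the first were 0.56, 1.07 and -0.76, and those of the second 0.88, -1.38 and -0.28.

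The lipoxygenase genes differed between EKO and WT tumours in both directions. Alox12e and Alox8, which make hydroxy fatty acids in mouse skin, were lower in every EKO tumour than in every WT tumour. Alox12b and Aloxe3 of the barrier pathway and Alox12 had higher EKO means, and the differences of Alox15, Alox5 and Alox5ap lay between -0.28 and 0.11. In limma's test across all genes 0 of the 8 passed an adjusted p of 0.05, where 0.00550% of all genes, Fabp5 alone, passed. At an unadjusted p under 0.05, 4 of the 8 were called, Alox12b and Alox12 with higher and Alox12e and Alox8 with lower EKO means, beside 7.13% of all genes (3.44% higher and 3.70% lower). The groups did not overlap for 3 of the 8, 2 lower (Alox12e and Alox8) and 1 higher (Aloxe3) in EKO, beside 12.0% of all genes, 6.19% lower and 5.78% higher. The EKO mean was higher for 4 and lower for 4 of the 8, beside 9105 of 18193 genes with a higher EKO mean. The median difference was -0.01, against 0.00014 over all genes. A difference above 0.5 in size was seen for 5 of the 8 and for 3.99% of all genes. Because the 8 were chosen with earlier results known, these counts describe the list and do not measure an excess over all genes.

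**Figure D1:**
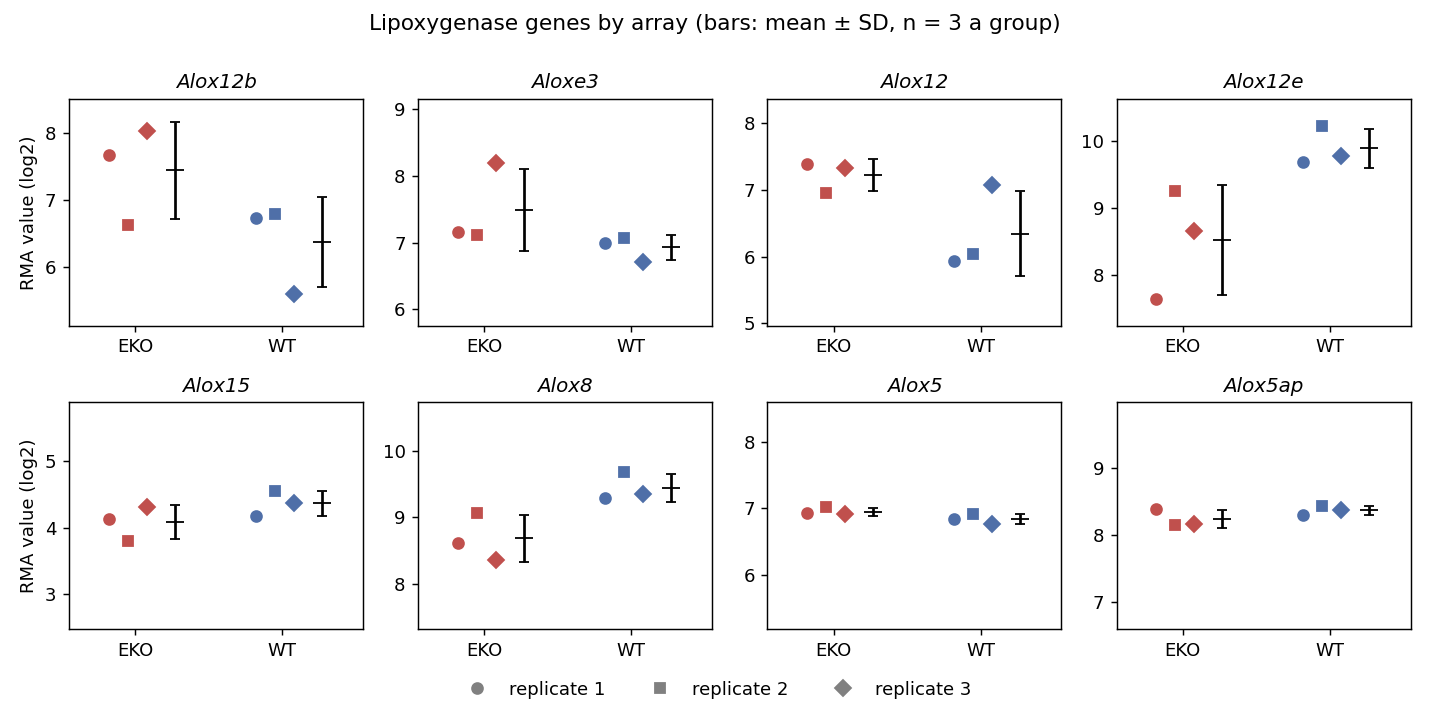
RMA values (log2, vertical axes spanning the same range in every panel) of the 8 genes in EKO and WT tumours; marker shapes give the replicate number and bars the mean ± SD (n = 3). Alox12e and Alox8 lie lower in all 3 EKO than in all 3 WT tumours, while Alox5 and Alox5ap hardly vary.

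Alox12e encodes the epidermal-type 12-lipoxygenase of the mouse. It read 7.64, 9.26 and 8.66 in EKO replicates 1, 2 and 3, against 9.69, 10.23 and 9.77 in WT replicates 1, 2 and 3. Every EKO value lay below every WT value, with a gap of 0.43 between the groups, and EKO replicate 1 lay far below the other EKO tumours. The mean was 8.52 ± 0.821 in EKO and 9.90 ± 0.291 in WT tumours (SD, n = 3 each), a difference of -1.38 (SE 0.385, 95% interval -2.29 to -0.47) or 2.60-fold lower. It did not pass over all genes (limma adjusted p = 0.621), and ranked 247 of 18193 genes by p. This was the largest difference in size among the 8.

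Alox8 encodes the 8S-lipoxygenase of mouse skin. It read 8.61, 9.07 and 8.36 in EKO tumours, against 9.29, 9.68 and 9.34 in WT tumours. The groups were apart by 0.22, and EKO replicate 2 lay nearest the WT values, as it did for Alox12e. With means of 8.68 ± 0.358 in EKO and 9.44 ± 0.213 in WT tumours (SD, n = 3 each), the difference was -0.76 (SE 0.195, 95% interval -1.22 to -0.30), or 1.69-fold lower. Alox8 had the smallest p of the 8 genes, rank 162 of all genes, and did not pass (limma adjusted p = 0.621). WT replicate 2 held the highest value of both Alox12e and Alox8.

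Sebaceous gland markers were followed beside these genes because the gland is part of skin epithelium. All 7 measured markers of 10 had lower EKO means (median difference -0.33). In limma's test 0 passed the adjusted threshold and 0 an unadjusted p under 0.05, and 0 were under the lower quartile on every array. Their mean log2 level was 9.80, 10.92 and 10.27 in EKO tumours, against 10.97, 10.49 and 10.64 in WT tumours. EKO replicate 1 was the lowest and EKO replicate 2 the highest EKO tumour for these markers and for Alox12e. EKO replicate 2 was also the highest EKO tumour for Alox8. The groups overlapped for the markers, and WT replicate 2 was the lowest WT tumour for the markers and the highest for Alox12e and Alox8. Far2, which makes fatty alcohols, had the smallest p of the list (difference -0.73, limma adjusted p = 0.756), followed by the glutathione transferase family member Mgst1 (-0.27) and the melanocortin receptor Mc5r (-0.33). The part of the sebaceous gland in the lower Alox12e and Alox8 values was not tested.

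Alox12b encodes the 12R-lipoxygenase that starts the oxidation of ceramide-bound linoleate. It read 7.68, 6.63 and 8.03 in EKO tumours, against 6.74, 6.79 and 5.60 in WT tumours. EKO replicates 1 and 3 lay above every WT value, whereas EKO replicate 2 lay below WT replicates 1 and 2, so the groups overlapped. The mean was 7.45 ± 0.731 in EKO and 6.38 ± 0.674 in WT tumours (SD, n = 3 each), a difference of 1.07 (SE 0.437, 95% interval 0.04 to 2.10) or 2.10-fold higher. It did not pass (limma adjusted p = 0.691). The size rested partly on WT replicate 3, the lowest of the 6 values, without which the difference was 0.68.

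Aloxe3 encodes the hydroperoxide isomerase that converts the product of Alox12b. It read 7.16, 7.11 and 8.19 in EKO tumours, against 7.00, 7.07 and 6.71 in WT tumours. The groups did not overlap, but the gap was 0.04, and EKO replicate 3 alone stood clear of the WT tumours. The means were 7.49 ± 0.611 in EKO and 6.93 ± 0.188 in WT tumours (SD, n = 3 each), a difference of 0.56 (SE 0.287, 95% interval -0.12 to 1.24; limma adjusted p = 0.734). Without EKO replicate 3 the difference was 0.21. EKO replicate 3 was the highest and WT replicate 3 the lowest array for both Alox12b and Aloxe3.

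Markers of differentiated keratinocytes, the cells in which Alox12b and Aloxe3 act, did not move one way. Of 14 measured markers 8 had higher and 6 lower EKO means (median 0.03), and their mean level was 11.34, 11.51 and 11.90 in EKO tumours, against 11.28, 11.65 and 11.32 in WT tumours. Their level was highest in EKO replicate 3, as were both lipoxygenases. In WT replicate 3, where Alox12b and Aloxe3 were lowest, it was 11.32, close to the lowest WT level of 11.28. The protease Klk7 (-0.38), the transglutaminase Tgm3 (1.91) and the protease Klk5 (-0.40) had the smallest p of the list. By limma 0 passed. Tgm3 was called higher and Klk7 lower at an unadjusted p under 0.05, beside 3.44% and 3.70% of all genes. For the 7 basal keratinocyte markers the median was 0.03 with 4 higher and 3 lower EKO means, 0 of them called either way by limma. Itga6, an integrin of the basal layer, stood at 0.26, Krt15 at -0.32 and Itgb4 at 0.29. The mean level of the basal list was 11.42 to 11.74 in EKO and 11.47 to 11.70 in WT tumours. The part of keratinocyte differentiation in the Alox12b and Aloxe3 values was not tested.

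**Figure D2:**
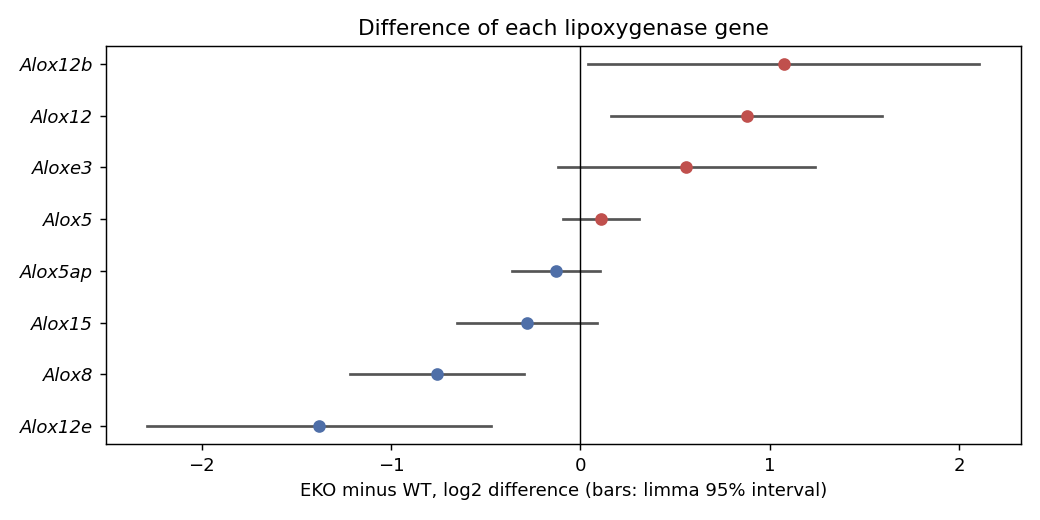
Log2 difference, EKO minus WT, of each of the 8 genes with its limma 95% interval (horizontal axis). Intervals of single genes leave out 0 for Alox12b and Alox12 on the higher and for Alox8 and Alox12e on the lower side, but none of the 8 passed after adjustment over all genes.

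Alox12 encodes the platelet-type 12-lipoxygenase. It read 7.40, 6.95 and 7.33 in EKO tumours, against 5.93, 6.03 and 7.08 in WT tumours. WT replicate 3 lay among the EKO values and above EKO replicate 2, while WT replicates 1 and 2 lay well below every EKO tumour. The mean was 7.23 ± 0.238 in EKO and 6.35 ± 0.636 in WT tumours (SD, n = 3 each), a difference of 0.88 (SE 0.303, 95% interval 0.16 to 1.59) or 1.84-fold higher (limma adjusted p = 0.638). Without WT replicate 3 the difference was 1.24 with the smallest adjusted p of any of the 8 genes under any alternative, 0.0914. The second Alox12 probe set read 3.64, 3.29 and 3.57 in EKO tumours, against 3.09, 3.24 and 3.40 in WT tumours. All 6 of these values were under their array's lower quartile, where RMA narrows differences, and its difference was 0.25.

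Platelet markers and hair shaft markers were given beside Alox12. Of 6 platelet markers 4 had higher EKO means (median 0.14), with Gp1bb, a subunit of the von Willebrand factor receptor, at 0.57, the integrin chain Itgb3 at 0.33 and the platelet chemokine Pf4 at -0.51; Ppbp, another platelet chemokine, was under the lower quartile on every array. By limma 0 platelet markers passed. Gp1bb and Itgb3, 2 of the 6, were called higher at an unadjusted p under 0.05, beside 3.44% of all genes. The platelet list had a mean level of 6.16 to 6.52 in EKO and 6.04 to 6.39 in WT tumours. All 11 measured hair shaft markers had higher EKO means (median 0.94), and by limma 0 passed or were called at an unadjusted p under 0.05. Their mean level was 10.88, 11.09 and 10.21 in EKO tumours, against 8.57, 9.27 and 11.69 in WT tumours, so that WT replicates 1 and 2 were lowest for the hair list as for Alox12, and WT replicate 3 was the highest of the 6 arrays for the hair list. The hair keratins Krt31 and Krt33a stood at 1.11 and 0.94 and the deiminase Padi3 at 0.98. The part of platelets or of hair follicle tissue in the Alox12 values was not tested.

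**Figure D3:**
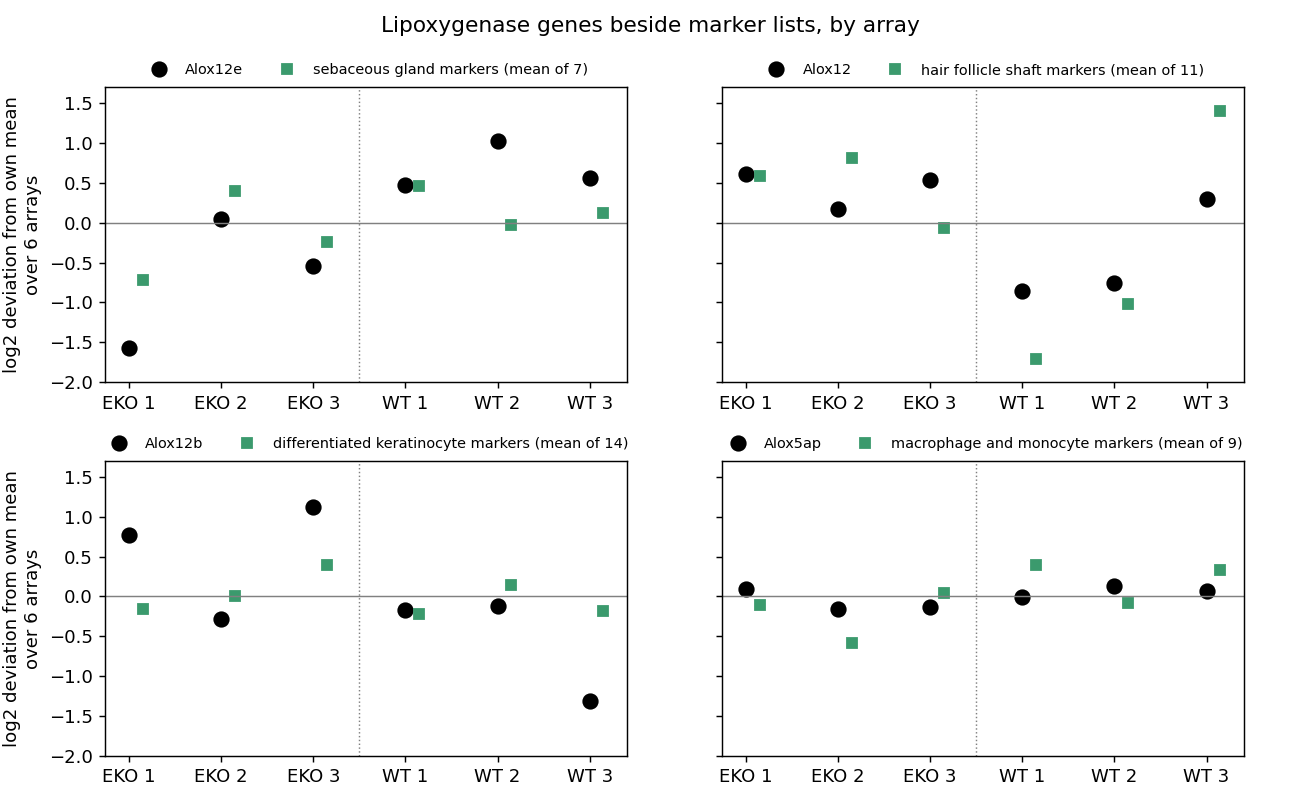
Deviation of 4 lipoxygenase pathway genes (circles) and of the mean of a marker list (squares) from their own mean over the 6 arrays, in log2 units, by array. Alox12 and the hair shaft markers share their lowest arrays, WT replicates 1 and 2. The hair shaft markers are highest in WT replicate 3, where Alox12 lies among its EKO values. Alox12b and the differentiated keratinocyte markers share their highest array, EKO replicate 3. In WT replicate 3 both lie below their own mean, Alox12b by far more than the markers.

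The leukocyte genes differed little. Alox5, the 5-lipoxygenase, read 6.92, 7.01 and 6.91 in EKO tumours, against 6.84, 6.92 and 6.76 in WT tumours, and the groups overlapped narrowly, EKO replicate 3 lying just below WT replicate 2. The difference was 0.11 (SE 0.0846, 95% interval -0.09 to 0.31; limma adjusted p = 0.823). Alox5ap read 8.40, 8.15 and 8.17 in EKO tumours, against 8.30, 8.43 and 8.37 in WT tumours. EKO replicate 1 lay within the WT range and the other EKO tumours below it, and the difference was -0.13 (SE 0.0988, 95% interval -0.36 to 0.10; limma adjusted p = 0.819). These intervals leave out a change of either gene as large as that measured for Alox8.

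Alox15, the 12/15-lipoxygenase, read 4.13, 3.81 and 4.32 in EKO tumours, against 4.18, 4.56 and 4.37 in WT tumours. The values lay near the lower quartile of the arrays, with EKO replicate 2 below it, so differences are narrowed there and no call of presence can be made. The difference was -0.28 (SE 0.157, 95% interval -0.65 to 0.09; limma adjusted p = 0.756), with EKO replicates 1 and 2 below every WT tumour and EKO replicate 3 within the WT range. Without EKO replicate 2 it was -0.14.

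Markers of the leukocytes that carry these genes were not uniform. Of 9 measured macrophage and monocyte markers 8 had lower EKO means (median -0.59). The groups did not overlap for 4, all lower, beside 6.19% of all genes. By limma 0 passed, and 5 were called lower at an unadjusted p under 0.05, beside 3.70% of all genes. The mannose receptor Mrc1 stood at -1.04 and the complement chains C1qc and C1qa at -0.65 and -0.59. Csf1r and Cd68 stood at -0.13 and -0.03, and Cd14, the 1 marker with a higher EKO mean, at 0.46. The mean level of the macrophage and monocyte list was 7.71, 7.23 and 7.87 in EKO tumours, against 8.22, 7.73 and 8.15 in WT tumours. Alox5 had a slightly higher (0.11) and Alox5ap a slightly lower (-0.13) EKO mean. The 6 pan-leukocyte markers had a median of -0.18, with Cd53 at -0.37, Coro1a at -0.17 and Tyrobp at -0.20, and a mean level of 8.12 to 8.70 in EKO and 8.43 to 8.65 in WT tumours. Of 8 neutrophil markers 2 had higher EKO means (median -0.02), with the collagenase Mmp8 at -0.69, the growth factor receptor Csf3r at 0.29 and Ngp at -0.21. The neutrophil list had a mean level of 4.87 to 5.09 in EKO and 4.95 to 5.09 in WT tumours, and Mmp8 was its 1 gene called at an unadjusted p under 0.05. Mast cell markers, of which 2 of 8 had higher EKO means (median -0.10), included the proteases Mcpt4 (-0.40) and Cpa3 (-0.26) and the IgE receptor chain Fcer1a (-0.33), with a mean level of 6.04 to 6.51 in EKO and 6.08 to 6.71 in WT tumours. Of 5 eosinophil markers 3 had higher EKO means (median 0.08) and 2 were under the lower quartile on every array, with a mean level of 3.64 to 3.95 in EKO and 3.66 to 3.77 in WT tumours. The part of these cells in the values of Alox5, Alox5ap and Alox15 was not tested.

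Genes that release fatty acids from membranes stand before the lipoxygenases. Of 11 measured phospholipase A2 genes of 12, 5 had higher and 6 lower EKO means (median -0.03). By limma 0 passed. At an unadjusted p under 0.05, 1 was called higher and 2 lower, beside 3.44% and 3.70% of all genes. Pla2g4d, a cytosolic phospholipase of skin, read 8.67, 7.47 and 9.25 in EKO tumours, against 7.55, 7.52 and 6.39 in WT tumours. It was high in EKO replicates 1 and 3 and low in WT replicate 3, with EKO replicate 2 among the WT values, the order already given for Alox12b; the difference was 1.31 (SE 0.493, limma adjusted p = 0.662). The secreted phospholipases Pla2g2d (-0.50) and Pla2g5 (-0.66) were lower in every EKO than in every WT tumour, the last with EKO values of 4.01 to 4.06 near the lower quartile. Pla2g4a, the phospholipase that releases arachidonate in most cells, stood at 0.12.

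Of 8 measured genes of leukotriene synthesis and breakdown 3 had higher and 5 lower EKO means (median -0.11), and by limma 0 passed or were called at an unadjusted p under 0.05. Lta4h, which makes leukotriene B4, read 10.22, 10.09 and 10.09 in EKO tumours, against 10.23, 10.32 and 10.24 in WT tumours, a difference of -0.13 without overlap. Ltc4s, the leukotriene C4 synthase, stood at -0.09, Mgst2, a transferase that can also make leukotriene C4, at 0.45 and Ptgr1, which inactivates leukotriene B4, at 0.62. Of 7 measured receptor genes 6 had higher EKO means. By limma 0 passed. At an unadjusted p under 0.05, 1 was called, beside 3.70% of all genes called lower, and this was the 1 gene with a lower mean. It was Cysltr1, a receptor of cysteinyl leukotrienes, which read 6.10, 6.19 and 6.17 in EKO tumours, against 7.12, 6.71 and 6.56 in WT tumours. Its groups did not overlap, and the difference was -0.64 (SE 0.145, limma adjusted p = 0.566). The leukotriene B4 receptor Ltb4r1 stood at 0.17, the formyl peptide and lipid mediator receptor Fpr2 at 0.28 and Oxgr1, reported to bind leukotriene E4, at 0.12. Oxgr1 was under the lower quartile on every array, and its difference is also the median of the receptor list. Gpr31b, under the lower quartile on 5 arrays, and Cysltr2, under it on 1, had differences of 0.08 and 0.004. The count of higher receptor means therefore includes genes near the floor.

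The epidermal genes that act beside Alox12b and Aloxe3 in the lipid envelope divided almost evenly, 8 of 17 measured with higher and 9 with lower EKO means (median -0.05). By limma 0 passed. Nipal4 was called higher and Ephx2 lower at an unadjusted p under 0.05, beside 3.44% and 3.70% of all genes. Sdr9c7, a dehydrogenase acting after Aloxe3, stood at -0.18, and the epoxide hydrolase Ephx3 at -0.16. Ephx2, the soluble epoxide hydrolase, read 6.23, 6.46 and 5.87 in EKO tumours, against 7.42, 6.99 and 6.86 in WT tumours. Its groups did not overlap, with a difference of -0.91 (SE 0.196, limma adjusted p = 0.549). Nipal4, mutated like the 2 lipoxygenase genes in human ichthyosis, read 9.30, 9.41 and 9.33 in EKO tumours, against 9.01, 8.99 and 8.99 in WT tumours (difference 0.35, limma adjusted p = 0.558). The fatty acid elongase Elovl4 stood at -0.37.

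Enzymes that reduce the hydroperoxides made by lipoxygenases held the largest difference of the pathway. Gpx2, a glutathione peroxidase of epithelia, read 11.05, 9.88 and 12.01 in EKO tumours, against 8.83, 8.27 and 9.16 in WT tumours (difference 2.22, limma adjusted p = 0.572). Gpx4, the peroxidase that reduces lipid hydroperoxides in membranes, read 11.30, 11.76 and 11.48 in EKO tumours, against 12.07, 11.76 and 11.72 in WT tumours, a difference of -0.34. EKO replicate 2 lay above WT replicate 3 for Gpx4, so its groups overlapped. Gpx3 stood at 0.38, and of the 4 measured genes 2 had higher and 2 lower EKO means. By limma 0 of the 4 passed, and Gpx2 was called higher at an unadjusted p under 0.05, beside 3.44% of all genes.

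**Figure D4:**
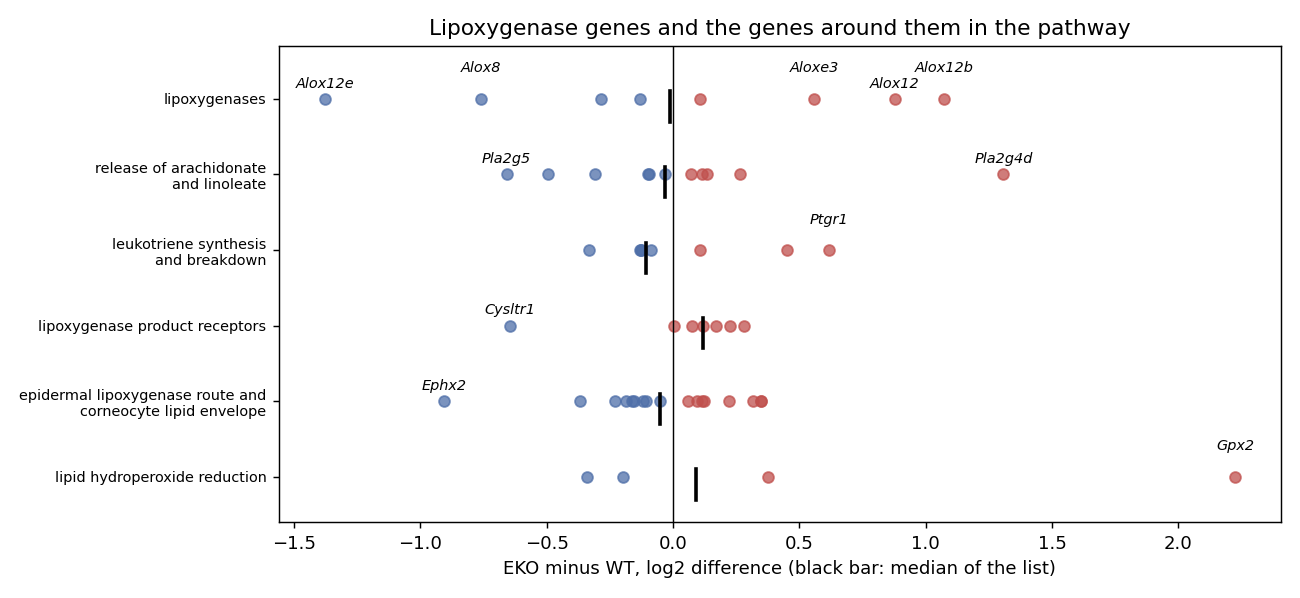
Log2 difference, EKO minus WT, of the 8 lipoxygenase genes and of the genes of 5 lists around them (points; red higher, blue lower EKO mean), with the median of each list as a black bar; genes beyond 0.5 in size are named. Medians lie between -0.11 and 0.12, the last set by Oxgr1 of the receptors, which was under the lower quartile on every array, and single genes such as Gpx2 (2.22) and Alox12e (-1.38) lie far out in both directions.

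Likeness of pattern was measured over the 6 arrays as the root mean square difference between the deviations of a gene and of a lipoxygenase from their own means, in log2 units, for the 4 genes whose SD over the arrays was at least 0.5. Among 16314 genes compared, those nearest Alox12b were Klk12, a kallikrein-related peptidase (0.154), Pla2g4d (0.164) and the troponin gene Tnnt2 (0.176). Each was highest in EKO replicates 1 and 3 and lowest in WT replicate 3. Nearest Aloxe3 were the chemokine Ccl4 (0.115), the neurotrophic factor Gdnf (0.140) and the carboxypeptidase subunit Cpn1 (0.141), all highest in EKO replicate 3. Nearest Alox12 were Gclc, the catalytic subunit of glutamate cysteine ligase (0.0835), Pdlim7 (0.142) and the actin-binding Cald1 (0.144). Gclc read 9.89, 9.21 and 9.79 in EKO tumours, against 8.42, 8.38 and 9.47 in WT tumours, and so shared with Alox12 a WT replicate 3 inside the EKO range. Alox12e had no gene as close: the nearest were the steroid hydroxylase Cyp17a1 (0.317), the chitinase-like Chil1 (0.319) and Clca3a2 (0.372), each lowest in EKO replicate 1. With 6 arrays and so many genes close patterns arise readily, so these are descriptions of the 6 tumours.

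**Figure D5:**
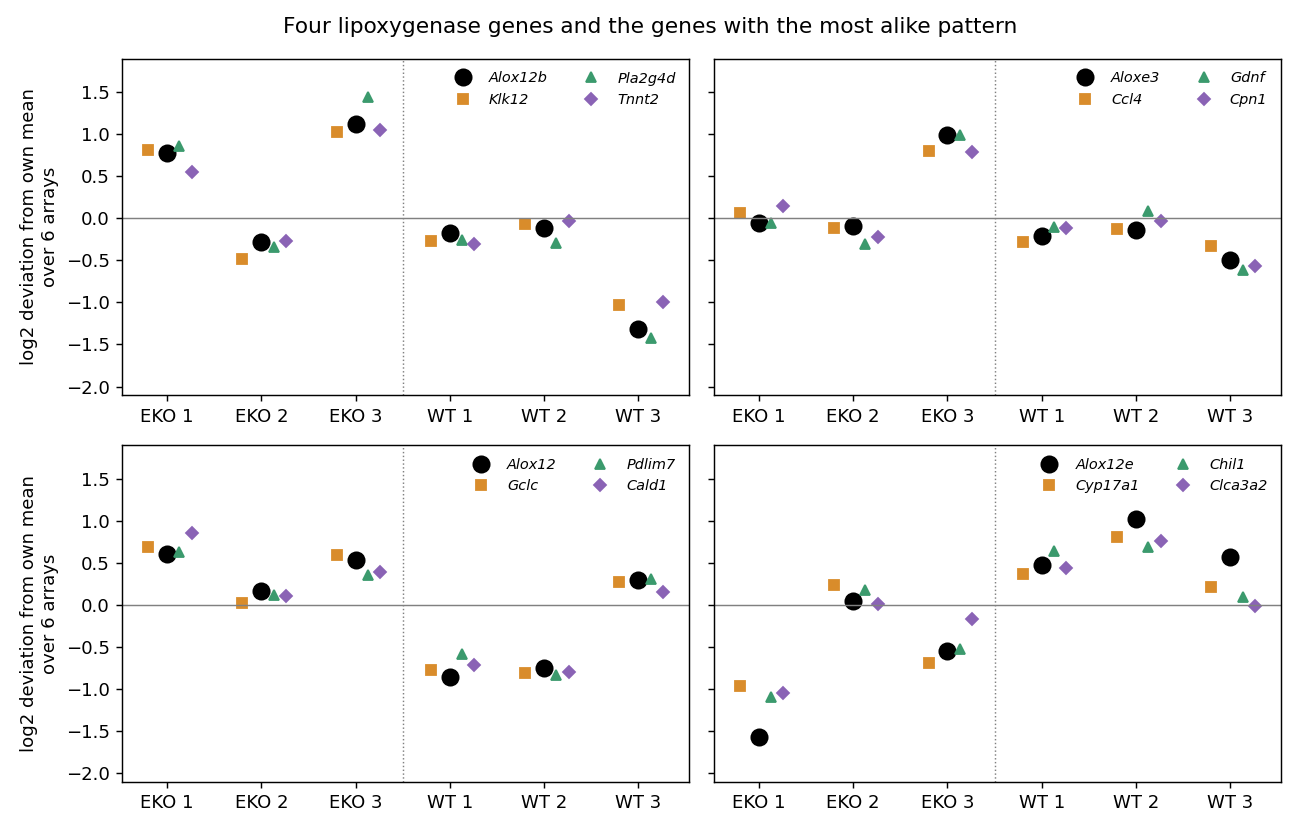
Deviation of Alox12b, Aloxe3, Alox12 and Alox12e (black circles) and of the 3 most alike genes of each (coloured markers) from their own mean over the 6 arrays, in log2 units, by array. Alox12b is highest in EKO replicates 1 and 3 and lowest in WT replicate 3, whereas Alox12e is lowest in EKO replicate 1.

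Between the lipoxygenases themselves, Alox5 and Alox5ap had the smallest distance (0.160). The measure is not scaled by a gene's spread, and both were nearly flat. Their differences had opposite signs, 0.11 and -0.13, so the small distance is no sign of a shared pattern. The barrier pair Alox12b and Aloxe3 differed by 0.484 and the pair with lower EKO values, Alox12e and Alox8, by 0.514. Alox12b and Alox12e were the farthest apart, by 1.51.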

How the data were processed

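RNA of tumour cells from 3 EKO and 3 WT mice was measured on 1 Affymetrix 3' array per mouse. Sample titles gave the group and the replicate number. The values are log2 expression, deposited by the authors after processing with Partek 6.6 and RMA (per the submitters' processing notes). That method subtracts background, equalises the arrays' distributions and summarises each probe set, which narrows differences near the floor. The sources used here give no detection calls, scan dates or batches. Design text and protocols disagree on the RNA extraction kit.

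Of 45101 probe sets, 64 controls were left out, 34945 carried 1 symbol, 932 several and 9160 none here. Each of 18193 genes was read from its probe set with the highest mean. No filter on low values was set. The comparison of EKO with WT used limma 3.58.1 under R 4.3.3 (lmFit, then eBayes; two-sided). Benjamini-Hochberg adjustment ran over all genes, at a threshold of 0.05. SE and 95% intervals are those of the moderated fit. The precision is limited by 3 arrays per group. The fit was checked on simulated data. There 28% of genes with a true log2 change of 0.5 passed, 76.8% with a change of 1 and 96.8% with a change of 2. Each simulation held 200 changed genes, so these shares need not hold for these data.

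The 8 genes, the pathway lists and the marker lists were chosen with earlier results of these data known. Named genes were the 8, Fabp5, up to 3 per list by smallest p, Ephx3, Sdr9c7, Gpx4, Lta4h, Ltc4s, Ltb4r1 and Pla2g4a, and the 3 most alike genes per lipoxygenase with an SD of at least 0.5, without predicted genes. Krt14, Ptprc, Ppbp, Csf1r, Cd68, Cd14, Gpr31b and Cysltr2 were named after their values were seen. Alternatives were a replicate block, the upper 50% of genes by mean, repeated quantile normalization, centred medians, array weights, eBayes with a trend and robust variances, the mean of a gene's probe sets, the second Alox12 probe set, a threshold of 0.1 and each array left out in turn. No coordinates are given except those of the RefSeq promoters, since no genome build for the array is given. Protein sequences were not used here.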

Additional observations from a re-analysis of the deposited data

How the results depend on the processing

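Each difference of the 8 genes kept its direction in all 104 recomputations, 12 to 14 per gene. Many of these could not turn it. The replicate block, the upper 50% of genes and the trend fit gave each difference unchanged. For Alox12e, Alox8 and Aloxe3 the groups did not overlap, so leaving out 1 array could not reverse the direction. None of the 8 genes passed an adjusted p of 0.05 in these recomputations. The adjusted p ran from 0.0914 to 0.998; the lowest, Alox12 without WT replicate 3 (difference 1.24), was under 0.1. The differences ran from 0.68 to 1.48 for Alox12b, 0.21 to 0.75 for Aloxe3, 0.25 to 1.24 for Alox12, -1.75 to -0.94 for Alox12e, -0.95 to -0.60 for Alox8, -0.40 to -0.14 for Alox15, 0.07 to 0.15 for Alox5 and -0.21 to -0.08 for Alox5ap. Alox15 was not among the upper 50% of genes by mean, so the median difference of the remaining lipoxygenase genes was 0.11 there. With 1 array left out that median ran from -0.04 to 0.02, the count of higher EKO means stayed at 4 and 0 of the 8 passed. Over all genes the number past the threshold ran from 1 to 42 with 1 array left out, 42 without EKO replicate 2 and 2 without WT replicate 2, and none of these was a lipoxygenase gene; the cause was not tested. Deviations of same-numbered arrays from their group means correlated at -0.07, -0.09 and -0.34. Such deviations sum to 0 over the 3 arrays of a group, so these values cannot settle whether the replicate numbers pair the arrays. With the replicate number as a block, 1 gene passed over all genes, and Alox12e and Alox8 had the smallest adjusted p of the 8, 0.599 each. The spread between 3 arrays per group, and signals near the floor for Alox15 and the second Alox12 probe set, limit these values.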

Other observations

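Other tissue in the digested tumours was followed with lists that bear on no single lipoxygenase. All 7 skeletal muscle markers had lower EKO means (median difference -1.23), with the myosin light chain Myl1 at -1.61, the troponin Tnnt3 at -1.23 and the creatine kinase Ckm at -0.97. Their mean level was 7.26, 6.32 and 5.88 in EKO tumours, against 9.50, 5.76 and 7.58 in WT tumours, so the groups overlapped and WT replicate 1 stood highest. Of 6 fibroblast markers 5 had lower EKO means (median -0.17), with the matrix proteoglycans Dcn at -0.90 and Lum at -0.46 and the collagen Col1a1 at 0.40. Of 6 dendritic and Langerhans cell markers 5 had lower EKO means (median -0.13), with the transcription factor Batf3 at -0.32, Flt3 at -0.10 and Xcr1, which was under the lower quartile on every array, at -0.18. The 5 endothelial markers divided into 3 higher and 2 lower (median 0.07), with the VEGF receptor Kdr at 0.42, Pecam1 at -0.52 and Tie1 at 0.16. In limma's test 0 genes of these lists passed an adjusted p of 0.05. At an unadjusted p under 0.05 Kdr was called higher, beside 3.44% of all genes. Dcn and Batf3 were called lower, beside 3.70%.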
